A study of Mus musculus with 10 samples.

Results

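Fibronectin, fibrillin and the genes of the elastic fibre were examined in mouse liver: Fn1, Fbn1, Eln, Fbln1, Fbln2, Fbln5, Emilin1, Mfap4, Tnc and Sparc, which are 10 genes beside 14531 named genes tested on the arrays. The genes were picked by name, with their difference between the groups below already known, so that difference is given as a description and supports nothing further. All 10 had at least 1 of 16 probes on the array, 9 were well above background on all 10 arrays, and Tnc did not pass the filter on dim probes. The study compared livers of 6 mice given metformin with CCl4 and 4 mice given CCl4 alone, with 1 Agilent 1-colour array per mouse. All mice were males of the TG221 strain, which carry a miR-221 transgene on a B6D2F2 background, and the promoter of the transgene is not given in the sources used here. From 4 to 6 weeks of age every mouse received 20% (v/v) carbon tetrachloride in olive oil by gavage, 3 times a week for 14 weeks. Metformin was given by mouth at 300 mg/kg each day, starting 3 weeks after the first CCl4 dose, and livers were taken at the 24-week end-point. The labels name the samples both as liver and as hepatocellular carcinoma, and no liver without CCl4 was analysed here.

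Fibronectin is a dimeric adhesive glycoprotein. Hepatocytes secrete a soluble form of it into plasma, while fibroblasts and endothelial cells make cellular forms that integrins assemble into fibrils. Elastic fibres consist of a core of crosslinked elastin on a scaffold of microfibrils built from fibrillin, and fibulins, EMILIN1 and MFAP4 link these parts to each other and to cells. In normal liver such fibres lie mainly in portal tracts and around vessels, and they accumulate in fibrotic septa, where activated stellate cells and portal fibroblasts deposit matrix.

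Fn1 was higher and the fibrillin and elastic fibre genes were lower in the livers with metformin. By limma with Benjamini-Hochberg adjustment over all 22184 features and a threshold of 0.05, 1 of the 9 measured genes rose (Fn1), 6 fell (Fbn1, Eln, Emilin1, Mfap4, Fbln1 and Fbln5) and 2 were not called (Fbln2 and Sparc). The same fit called 45.4% of all features, 28.0% higher and 17.4% lower with metformin. The median difference of the 9 genes was -0.79 on the log2 scale, against 0.10 over all features. In 5 of the 9 the groups did not overlap (Fn1 above, and Fbn1, Eln, Emilin1 and Mfap4 below), where 33.6% of all features did not overlap, 21.4% higher and 12.2% lower with metformin. Levels are given as the log2 of the processed spot signal minus the 75th percentile of the array, so that 0 stands for the 75th percentile, and differences are metformin plus CCl4 minus CCl4. The 6 metformin arrays shared a slide and the 4 CCl4 arrays another, so treatment cannot be told apart from slide and scan. In these bulk livers fewer cells of a type and less RNA per cell cannot be told apart either. Scaling to the labelled spike-in transcripts in place of the 75th percentile moved every difference by the same amount, so that the median over all features came to -0.45.

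**Figure D1:**
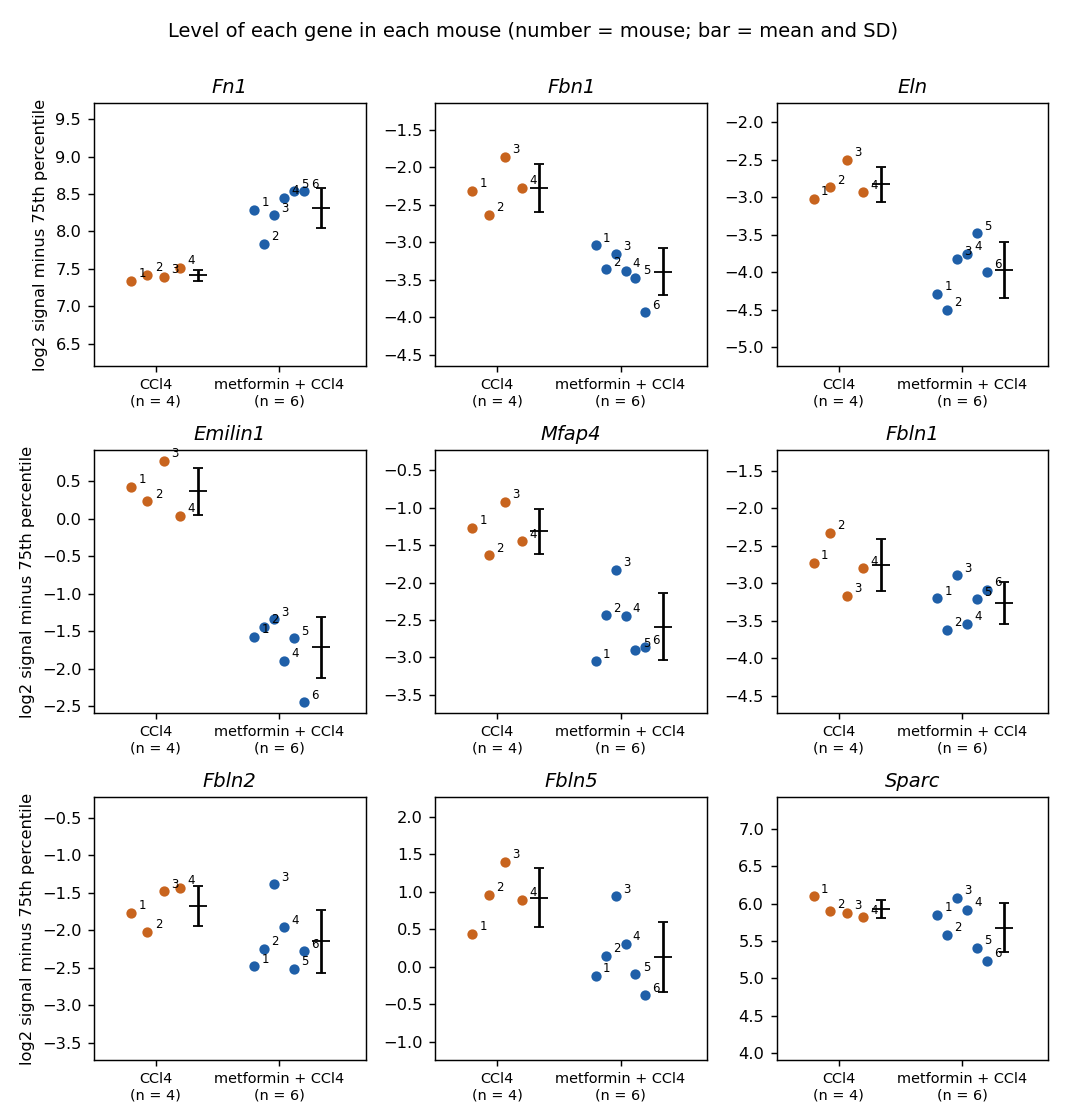
Level of the 9 measured genes in each mouse, as log2 signal minus the array's 75th percentile on the y axis, with 4 CCl4 mice (orange) and 6 metformin plus CCl4 mice (blue). Numbers name the mice, black bars show mean and SD, and the y axes differ in position but cover the same log2 span. Fn1 lay higher in all 6 metformin mice, at 7.83 to 8.54 against 7.34 to 7.51, while Emilin1 lay lower, at -2.45 to -1.34 against 0.04 to 0.77.

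Fn1 encodes fibronectin. Its level was 7.34, 7.42, 7.39 and 7.51 in CCl4 mice 1 to 4, and it ran from 7.83 over a median of 8.37 to 8.54 in the 6 metformin mice. The 4 CCl4 livers were nearly level with each other and the metformin livers were all above them, with metformin mouse 2 closest. The difference was 0.89 ± 0.14 (SE, n = 6 and 4), which is 1.85-fold. By the probes used, Fn1 was the single gene of the 9 with a higher mean, and its difference was 0.34 and no longer called after scaling to spike-ins. Between arrays in row 1 of their slides alone (metformin mice 1 and 2 against all 4 CCl4 mice) it was 0.64. Fn1 has 1 probe on the array, and that probe cannot show which of the spliced forms, plasma or cellular, the transcripts belong to. Of 12 hepatocyte markers 0 rose by limma (0 at an unadjusted p below 0.05), 2 fell, Cps1 and Apoa1, and 10 were not called. The same fit called 17.4% of all features lower and 28.0% higher. After scaling to spike-ins 9 of the 12 fell, where 9699 of all 22184 features were called lower. Their summed signal was 8072 to 10557 times the 75th percentile in metformin and 9129 to 11205 times in CCl4 mice.

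Fbn1 encodes fibrillin-1, the main protein of microfibrils. Its levels were -2.32, -2.64, -1.86 and -2.27 in CCl4 mice 1 to 4 and -3.93 to -3.04, with a median of -3.37, in metformin mice. CCl4 mouse 3 was highest and metformin mouse 6 lowest, and the groups were separated by 0.40 at their nearest mice. The difference was -1.12 ± 0.19 (SE, n = 6 and 4), a 2.17-fold lower level. Eln, the gene of elastin, had levels of -3.02, -2.86, -2.49 and -2.93 in the CCl4 mice and -4.50 to -3.48, with a median of -3.90, in metformin mice. Metformin mice 1 and 2, the pair in row 1 of their slide, were the lowest of all 10. Eln differed by -1.14 ± 0.20, or 2.21-fold, by -1.56 between row 1 arrays alone, and the groups were 0.46 apart at their nearest mice.

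Emilin1 had the largest fall of the 9 measured genes. It encodes an elastin-associated glycoprotein at the interface of elastin and microfibrils, known to restrain the processing of pro-TGF-beta. Its levels were 0.43, 0.23, 0.77 and 0.04 in CCl4 mice 1 to 4 and -2.45 to -1.34, with a median of -1.58, in metformin mice. No metformin liver came within 1.38 of the lowest CCl4 liver. The difference was -2.08 ± 0.22 (SE, n = 6 and 4), a 4.24-fold lower level, and it was -1.88 between row 1 arrays alone. Mfap4, which encodes a microfibril-associated protein that binds elastin and collagen, had levels of -1.27, -1.64, -0.92 and -1.45 in the CCl4 mice and -3.05 to -1.83, with a median of -2.66, in metformin mice. The groups were close at their edges, with 0.19 between CCl4 mouse 2 and metformin mouse 3. Mfap4 differed by -1.27 ± 0.24, or 2.41-fold. With a normexp background correction of the median spot signals (offset 50) Mfap4, Eln, Fbn1 and Emilin1 differed by -0.60, -0.45, -0.50 and -1.42 and stayed called. The authors' deposited table was limited by them to probes with a fold over 1.5 and FDR under 0.01. Among its 4595 probes are those of Emilin1, Eln and Fn1, with differences of group means of -2.12, -1.20 and 0.71. It holds no other probe of the 10 genes.

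**Figure D2:**
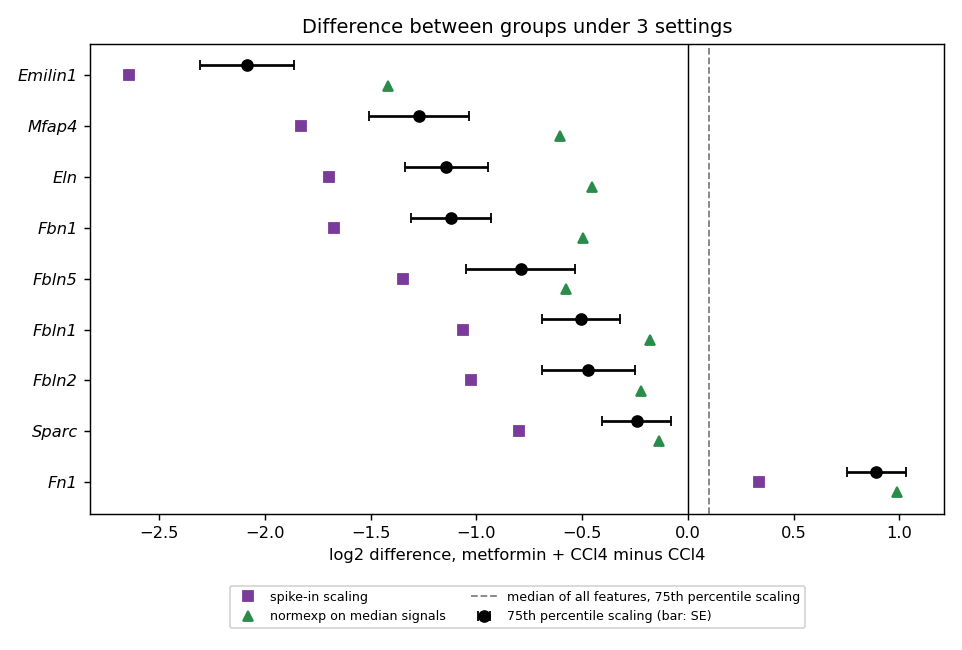
Difference of each gene, metformin plus CCl4 minus CCl4, on the log2 scale on the x axis. Black circles with SE bars use 75th percentile scaling, purple squares spike-in scaling and green triangles normexp background correction. Fn1 stayed above 0 (0.89, 0.34 and 0.99) and Emilin1 was farthest below 0 (-2.08, -2.64 and -1.42) in all 3.

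The fibulins differed less. Fbln5, which encodes a protein that brings elastin onto microfibrils and binds integrins, had levels of 0.44, 0.96, 1.40 and 0.89 in CCl4 mice 1 to 4 and -0.38 to 0.94, with a median of 0.02, in metformin mice. CCl4 mouse 1 was low and metformin mouse 3 high for its group, so the groups overlapped, and the other 5 metformin mice were below all CCl4 mice. The difference was -0.79 ± 0.26 (SE, n = 6 and 4), or 1.73-fold. This call was lost on leaving out metformin mouse 1, 5 or 6 or CCl4 mouse 2, 3 or 4 in turn, with differences of -0.74, -0.74, -0.69, -0.78, -0.63 and -0.80. A second Fbln5 probe was not well above background on any array.

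Fbln1 encodes fibulin-1, which binds fibronectin and elastin. Its levels were -2.73, -2.33, -3.17 and -2.80 in the CCl4 mice and -3.63 to -2.89, with a median of -3.21, in metformin mice. CCl4 mouse 3, the highest CCl4 mouse for Fbn1, Eln, Emilin1, Mfap4 and Fbln5, was the lowest for Fbln1, and 2 metformin mice lay within the CCl4 range. The difference was -0.50 ± 0.18, or 1.42-fold. Its call was lost in 12 of 20 other settings, among them normexp (-0.18) and leaving out, each in turn, metformin mouse 1, 2, 4 or 5 or CCl4 mouse 1, 2 or 4 (-0.52 to -0.36). The second kept probe of Fbln1 gave -0.58 ± 0.25, and the last, well above background on 1 array of each group and not kept, gave -0.72 ± 0.69. Fbln2, fibulin-2, had levels of -1.76, -2.02, -1.48 and -1.43 in the CCl4 mice and -2.51 to -1.39, with a median of -2.26, in metformin mice. Metformin mouse 3 was above all 4 CCl4 mice and 4 other metformin mice were below all of them. Fbln2 differed by -0.47 ± 0.22 and was not called, but it was called without metformin mouse 3, at -0.62.

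Sparc encodes a collagen-binding matricellular glycoprotein. Its levels were 6.09, 5.90, 5.88 and 5.82 in CCl4 mice 1 to 4 and 5.24 to 6.08, with a median of 5.71, in metformin mice. The metformin mice were spread more widely, with 3 of the 6 inside the CCl4 range and 3 below it. The difference was -0.24 ± 0.16 (SE, n = 6 and 4) and was not called, although it was -0.80 and called after scaling to spike-ins. Both other Sparc probes, well above background on all 10 arrays, differed by 0.08 with SEs of 0.22 and 0.23, so that the sign depends on the probe, and by the mean of its kept probes Sparc differed by -0.03. Tnc, tenascin-C, an adhesion-modulating glycoprotein of wound matrix, had 2 probes, of which neither was well above background on any of the 10 arrays. Its probes averaged -6.66 and -6.52 in metformin and -6.50 and -6.49 in CCl4 mice, so no difference could be measured for Tnc.

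The spread between mice was described with each gene centred on the mean of its own group. Among the 6 metformin mice, mouse 3 was highest for 6 of the 9 genes (Fbln1, Fbln2, Fbln5, Emilin1, Mfap4 and Sparc) and lay above the group mean for all 6 genes that fell, by 0.15 to 0.81 and by 0.45 on average. Mouse 6 was lowest for 4 genes (Fbn1, Fbln5, Emilin1 and Sparc), and for the genes that fell it averaged -0.32 from the group mean. Among CCl4 mice, mouse 3 was highest for 5 genes, at 0.27 above the group mean on average for the genes that fell. Fn1 did not follow this order: metformin mouse 3 was at 8.21, below the median of its group, and metformin mouse 6 was among the highest at 8.54. The SD between metformin mice was larger than that between CCl4 mice for 7 of the 9 genes, with medians of 0.37 and 0.31, against 55.3% of all features, with medians of 0.23 and 0.22. For Fn1 the SDs were 0.27 and 0.073. Metformin mice 1 and 2 lay in row 1 and mice 3 to 6 in row 2 of their slide, and the part of this position in the spread was not tested.

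**Figure D3:**
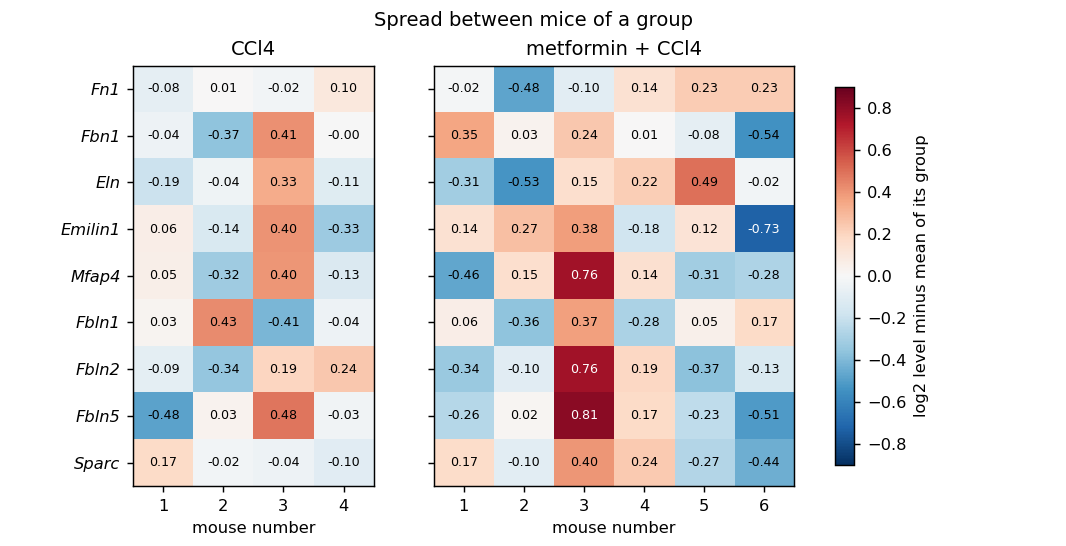
Log2 level of each gene (rows) in each mouse (columns) minus the mean of that mouse's group, with red above and blue below the mean. Metformin mouse 3 was above its group mean by up to 0.81 (Fbln5) and metformin mouse 6 below it by up to 0.73 (Emilin1), while Fn1 was lowest in metformin mouse 2.

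The 4 genes that fell and have an entry in the RefSeq promoter table (build GRCm38.p6) are shown with the 250 bases before their most upstream start, 5′ to 3′ on the strand of the gene, to set side by side what precedes genes that were lower together. Capitals mark matches to 8 short motifs searched on both strands: the cyclic AMP response element TGACGTCA, the AP-1 motif TGANTCA, the GC box GGGCGG, the CCAAT box, the TATA box with the letters TATAAA, the E-box CACGTG, a SMAD element with the letters CAGACA and the TEAD motif GGAATG.
Fbn1 (chr2:125506439-125506688, minus strand): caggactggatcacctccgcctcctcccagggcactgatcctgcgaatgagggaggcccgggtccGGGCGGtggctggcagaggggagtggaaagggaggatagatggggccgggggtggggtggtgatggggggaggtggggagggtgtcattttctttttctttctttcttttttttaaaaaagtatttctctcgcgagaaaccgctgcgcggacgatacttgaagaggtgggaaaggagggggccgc
Emilin1 (chr5:30913536-30913785, plus strand): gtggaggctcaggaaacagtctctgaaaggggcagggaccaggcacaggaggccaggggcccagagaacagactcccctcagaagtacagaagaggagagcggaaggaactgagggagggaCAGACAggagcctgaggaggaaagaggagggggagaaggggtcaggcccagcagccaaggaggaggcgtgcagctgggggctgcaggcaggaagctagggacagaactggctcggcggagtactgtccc
Fbln5 (chr12:101819120-101819369, minus strand): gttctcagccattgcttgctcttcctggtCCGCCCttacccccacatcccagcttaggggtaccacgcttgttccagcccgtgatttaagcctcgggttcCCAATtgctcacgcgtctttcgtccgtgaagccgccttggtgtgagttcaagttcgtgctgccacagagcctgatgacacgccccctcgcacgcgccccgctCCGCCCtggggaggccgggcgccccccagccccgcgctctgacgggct
Fbln1 (chr15:85205699-85205948, plus strand): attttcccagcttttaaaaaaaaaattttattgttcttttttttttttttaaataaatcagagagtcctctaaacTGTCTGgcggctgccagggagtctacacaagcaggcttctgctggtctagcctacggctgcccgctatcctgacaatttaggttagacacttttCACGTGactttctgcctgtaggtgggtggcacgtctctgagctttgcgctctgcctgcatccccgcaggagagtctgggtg
No matches overlapped each other, and no motif was present in all 4 windows. The GC box was found in those of Fbn1 (bases -185 to -180, counted back from the start) and Fbln5, and among all 27025 promoters 33.0% hold it. The SMAD element was found for Emilin1 (-129 to -124) and Fbln1 (17.1% of all promoters), the CCAAT box for Fbln5 (34.5%) and the E-box for Fbln1 (6.04%). Of the 3 other genes in the table, Fbln2 had a GC box, Tnc a GC box and a TATA box (12.98% of all promoters), and Sparc the SMAD element. The cyclic AMP response element, AP-1 and TEAD motifs, in 1.60%, 6.85% and 12.6% of all promoters, were in none of the 7 windows. Fn1, Eln and Mfap4 are not among the entries.

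Likeness of pattern was measured as the root mean square difference between a gene and each of 14515 named genes outside the 10 over the 10 arrays, with each gene centred on the mean of its group means. The group difference stays in this measure, so genes with a similar difference come near. Genes closest to Fn1 were Cachd1 (0.094 in log2 units), Bax, which encodes an apoptosis effector (0.11), and Ttc4 (0.12). For Fbn1 the metalloprotease gene Adam8 (0.11) came first, then Abcc1 (0.13) and Relb (0.14). For Fbln5 it was Adamts2 (0.12), which encodes a procollagen N-proteinase, then Prss23 (0.12) and Fxyd6 (0.13). Mfap4 was closest to the collagen receptor gene Mrc2 (0.16), then to Olfml3 and the WNT antagonist gene Frzb (both 0.20). Fbln2 was closest to its family member Fbln7 (0.17), then to Tmem132a (0.18) and Cdk14 (0.20). Emilin1 had no gene nearer than Ywhaz (0.24), followed by Angptl2 (0.27) and Prkch (0.28). Eln was closest to Rbp3 (0.17), then to Ulk3 and Erich5 (both 0.21). Nearest to Fbln1 were Olfr1419 (0.14), Tyms (0.15) and Mocs1 (0.16), and nearest to Sparc were Unc45b (0.11), Sh3bgrl3 and Nrm (both 0.13).

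Other genes of the same matrix were taken from 4 lists with 103 genes, of which 84 were tested. Of these 39 fell, 6 rose and 39 were not called, with a median difference of -0.53 against 0.10 over all features. The same fit called 17.4% of all features lower and 28.0% higher. The genes that fell include Fbn2, Thbs2, Hmcn1, Mmp9 and Mmp12, which passed the filter through the CCl4 arrays alone. After scaling to spike-ins 72 fell and 0 rose (0 at an unadjusted p below 0.05 in limma), where 9699 of all 22184 features were called lower. Among 23 partners of the elastic fibre and microfibril, 10 fell and 3 rose (median -0.57). Loxl1, the lysyl oxidase that crosslinks elastin, differed by -2.59 ± 0.32 (adjusted p = 1.77e-04 in limma; -1.95 by a second kept probe, above background on 3 metformin arrays), with levels of -1.20, -1.04, -0.02 and -0.58 in CCl4 mice 1 to 4. Adamtsl2, which encodes a fibrillin-binding glycoprotein, differed by -2.35 ± 0.19 (adjusted p = 2.74e-05 in limma), with levels of 0.08, 0.24, 0.80 and 0.07 in the CCl4 mice. For both genes the 2 groups of mice did not overlap. Fbn2, fibrillin-2, was well above background on 3 CCl4 arrays and on none with metformin. The CCl4 mean was therefore set against the higher, on each metformin array, of the probe's signal and the lowest signal of any probe well above background. By this estimate Fbn2 was 1.89-fold lower, which is no strict bound, since not all CCl4 arrays were above background. The groups nearly met, at -4.385 in metformin mouse 4 and -4.382 in CCl4 mouse 2. The latent TGF-beta binding genes Ltbp1, Ltbp3 and Ltbp4, chosen after their values were seen, fell (-0.73, -0.61 and -0.90), and the other member of the family, Ltbp2, was at -0.66 and not called. Mfap1a and Mfap3, whose part in microfibrils these data do not show, rose by 0.47 and 0.65. After scaling to spike-ins they differed by -0.081 and 0.099 without being called. Emilin3 and Emilin2, relatives of Emilin1, were also chosen after their values were seen. Emilin3 rose by 0.78 with overlapping groups, and Emilin2 was at -0.44 and not called. Lox and Loxl4 were not well above background on any array.

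Among 23 matricellular relatives 9 fell and 1 rose (median -0.46), again beside 17.4% of all features lower and 28.0% higher. This list rested most on single choices: 5 fell without CCl4 mouse 3, and 2 with slide row as a covariate. All CCl4 arrays lay in row 1, so with that covariate the difference rests on metformin mice 1 and 2 alone. Thbs1, a thrombospondin that binds matrix and growth factors, differed by -1.33 ± 0.30 (adjusted p = 0.0047 in limma). Its relative Thbs2 and Hmcn1, the giant fibulin relative hemicentin-1, passed the filter through the CCl4 arrays alone and were well above background on 3 and 1 of the 6 metformin arrays. Their fitted differences of -1.83 and -1.60 rest in part on signals not above background. With slide row as a covariate neither was called (-1.46 and -0.82), nor was Hmcn1 between row 1 arrays alone. Of 18 genes for fibronectin receptors and assembly 14 fell and 1 rose (median -0.80). With a block on mouse number 9 fell, where 2838 of all 22184 features were called lower. Tgm2, transglutaminase 2, which crosslinks fibronectin and acts as its co-receptor, differed by -2.12 ± 0.15 (adjusted p = 1.95e-05 in limma; -2.39 by a second kept probe), from 6.72 to 7.43 in CCl4 mice to 4.59 to 5.04 in metformin mice. Itga8, an integrin subunit of stellate and smooth muscle cells that binds fibronectin, differed by -1.55 ± 0.30 (adjusted p = 0.00201), and Plaur, the urokinase receptor, by -1.38 ± 0.16 (adjusted p = 1.24e-04). Itga5 and Itgb1, chosen after their values were seen, which encode the subunits of the classical fibronectin receptor, fell by 1.38 and 0.78. The proteoglycan gene Sdc2 rose by 0.34, and differed by -0.21 without a call after scaling to spike-ins. Of 20 genes for proteases and their inhibitors 6 fell and 1 rose (median -0.36). Mmp2, a gelatinase, differed by -1.91 ± 0.27 (adjusted p = 3.40e-04 in limma). Mmp9, another gelatinase, and Mmp12, the macrophage elastase, passed the filter through the CCl4 arrays alone and were well above background on 1 and 2 of the 6 metformin arrays. Their fitted differences, both -2.21, therefore rest on metformin signals that are mostly not above background. Ctsb, the lysosomal protease cathepsin B, rose by 0.29, but its call was lost in 6 of 20 other settings, among them median scaling (0.22), quantile normalization (0.16), slide row (0.27) and spike-ins (-0.27).

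**Figure D4:**
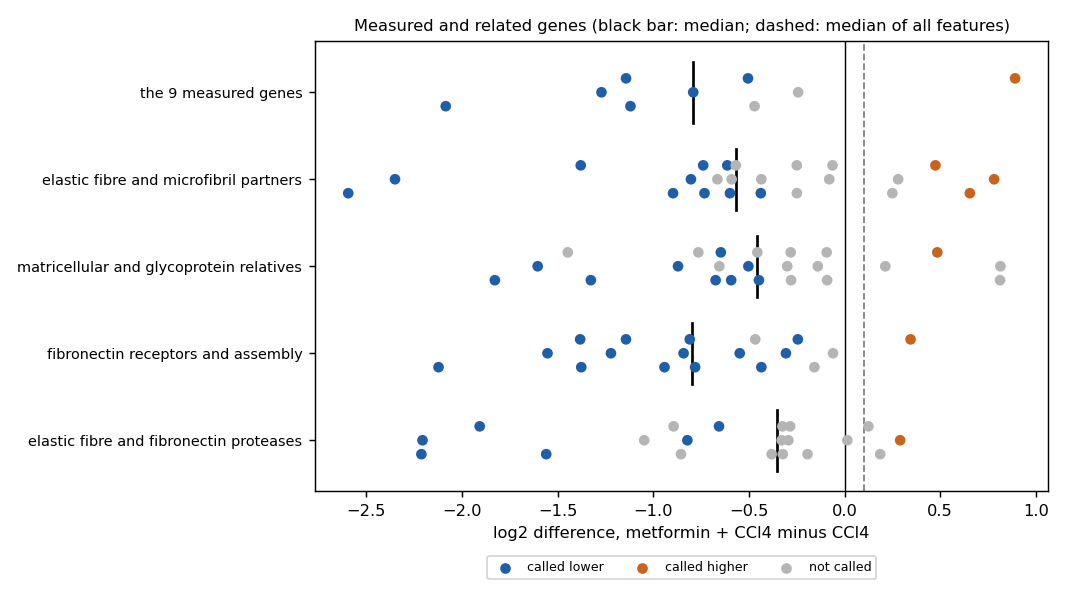
Log2 difference, metformin plus CCl4 minus CCl4, of the 9 measured genes and of the tested genes of 4 lists, 1 point per gene, blue where called lower, orange where called higher and grey where not called. Black bars mark the median of each row (-0.79, -0.57, -0.46, -0.80 and -0.36 from top to bottom) and the dashed line the median of all features at 0.10.

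Markers of the cells that could hold these transcripts were counted in the same fit, which called 17.4% of all features lower and 28.0% higher. Of 12 markers of stellate cells and myofibroblasts 8 fell and 1, Hhip, rose, where slide row as a covariate, or row 1 alone, left 5 lower and Hhip without a call. Hhip was well above background on 2 of the 4 CCl4 arrays. The summed signal of the 12 was 8.12 to 12.99 times the 75th percentile in metformin and 15.1 to 23.8 times in CCl4 mice. Of 11 tested markers of portal fibroblasts and mesothelium 3 fell (Dpt, Upk3b and Cd34; 5 without metformin mouse 3, 1 with slide row as a covariate), and the summed signal overlapped, at 19.6 to 40.0 and 22.6 to 32.8. Of 10 vascular smooth muscle markers 4 passed the filter and 2 fell (1 without CCl4 mouse 2 or 4), their summed signal being 5.62 to 9.48 and 8.12 to 10.8, and Myocd, Lmod1 and Pln were not well above background on any array. Acta2 is in the stellate and the smooth muscle list, and Spp1 is in the bile duct and the matricellular list. Of 11 endothelial markers 4 fell, with a summed signal of 56.8 to 93.9 and 81.2 to 96.4, and of 11 macrophage markers 5 fell, at 63.7 to 115 and 90.2 to 115. Of 9 tested bile duct markers 5 fell (3 without CCl4 mouse 3) and 1 rose, at 2.65 to 11.2 and 7.47 to 14.1. Epcam and Krt7, which fell, passed the filter through the CCl4 arrays alone, with 1 and 4 of 6 metformin arrays well above background. The same holds for Upk3b, with 4 of 6. The falls of Epcam, Krt7 and Upk3b rest in part on signals not above background. Each sum weighs its brightest markers most. For the portal list this was Gas6, with mean log2 levels of 4.49 in metformin and 4.21 in CCl4 mice. For the bile duct list it was Spp1, at 1.56 and 3.01. Neither Gas6 nor Spp1 was called. With slide row as a covariate or row 1 alone 3 macrophage and 2 bile duct markers fell. After scaling to spike-ins 7 portal, 8 endothelial, 8 macrophage and 8 bile duct markers fell, and the bile duct marker that rose lost its call. That scaling called 9699 of all 22184 features lower and 924 higher. The part of these cells in the lower elastic fibre genes was not tested. Over the 10 arrays 51.2% to 54.9% of probes were well above background, and the 75th percentile of the signal ran from 237 to 363.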

How the data were processed

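Liver RNA of 10 mice was measured on 1-colour Agilent arrays, 1 array per mouse, with groups and mouse numbers as the titles give them. The deposited scanner files hold linear spot intensities made with Agilent Feature Extraction 10.7.3.1, background-subtracted and spatially detrended, per the file headers, and 0 or 1 flags for each spot. A further deposited table holds quantile-normalized log2 values of probes with a fold over 1.5 and FDR under 0.01, per the file headers; its test is not given in the sources used here. Levels were log2 processed intensities, less the 75th percentile of the 59305 spots that are no controls, without spots flagged as outliers (135 to 179 per array). No spot was saturated. Spots of a probe were averaged, and a probe stayed in (29576 did) if 75% or more of a group's arrays flagged it well above background. Probes were named through RefSeq accessions (GRCm38.p6, names only, since the grid names mm9); 28664 of 55681 probes matched 21613 genes. A gene was represented by its brightest probe, kept the same except where a gene's probes were averaged. Groups were compared with limma 3.58.1 in R 4.3.3 (two-sided, Benjamini-Hochberg over 22184 features). The fit was tested on simulated data. Precision is limited by having 6 and 4 arrays. The members and lists were chosen with earlier results of these data known. Genes named from a list were the 3 called genes with the largest fall and rise whose groups did not overlap; others are marked. Alternatives were normexp, median, quantile and spike-in scaling (8 control probes), no dim-probe filter, the mean of a gene's probes, outlier spots kept, slide row, a block on mouse number and leaving out each mouse. Figures were drawn with matplotlib 3.10.9.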

Additional observations from a re-analysis of the deposited data

Results flagged for a closer look

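In 50 groups of mice tested for a lone value (9 measured genes and 16 named related genes, each in both treatments), 3 held a mouse far from the others of its group, where chance flags about 1 in 20. Itga8 was at 2.15 in CCl4 mouse 3 and next at 1.23, a gap that is 0.912 of the group's range. Mmp9 was at -4.31 in metformin mouse 4 and next at -6.01 (0.774 of the range), and mouse 4 is the 1 metformin array with Mmp9 well above background. Ctsb was at 6.66 in CCl4 mouse 1 and next at 6.53 (0.883 of the range). None of the 9 measured fibronectin and elastic fibre genes was among them.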

How the results depend on the processing

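Fbn1, Eln, Emilin1 and Mfap4 kept their direction and call in all 20 recomputed settings, and no measured gene of the 9 changed sign. The authors' deposited table gave Fn1, Eln and Emilin1 the same sign. It was limited to probes that differed on these same arrays, so this is no separate check. Leaving out 1 mouse at a time gave 0.85 to 0.99 for Fn1, -1.24 to -0.98 for Fbn1, -1.24 to -1.03 for Eln, -2.19 to -1.94 for Emilin1, -1.42 to -1.14 for Mfap4, -0.64 to -0.36 for Fbln1, -0.62 to -0.39 for Fbln2, -0.95 to -0.63 for Fbln5 and -0.32 to -0.15 for Sparc. It left 1 of the 9 called higher each time and 4 to 7 called lower, 5 to 6 and 29 to 44 of the related genes, and 5438 to 6135 and 3149 to 3754 of all features. Scaling to spike-ins lost the call of Fn1 (0.34) and added those of Fbln2 (-1.03) and Sparc (-0.80). It left 0 of the 9 called higher by limma (0 at an unadjusted p below 0.05), 0 higher (0 at an unadjusted p below 0.05) and 72 lower of the related genes, and 924 higher and 9699 lower features, and turned Mfap1a, Sdc2 and Ctsb to -0.081, -0.21 and -0.27. Fbln1 lost its call with normexp (-0.18), without the filter on dim probes (-0.50, with more features tested), with slide row as a covariate or alone (-0.66 in both) and with the block (-0.56). Fbln5 lost its call with slide row as a covariate (-0.91), and Fbln2 gained one between row 1 arrays alone (-0.69). Slide row as a covariate left 3 higher and 24 lower of the related genes, and row 1 alone 3 higher of them and 3486 higher features. All CCl4 arrays lay in row 1, so both settings take the same difference, from metformin mice 1 and 2 against the CCl4 mice. Mouse numbers are shared by both groups in the titles, but nothing says that they pair mice: same-numbered mice deviated from their groups with correlations of -0.14 to 0.085 across features, and no CCl4 mouse correlated best with its own number. With the mouse number as a replicate block, 3967 features were called higher and 2 related genes, and 5 of the 9 genes stayed called lower. In this fit Fn1 was at 0.78, and Sdc2 (0.34), Ctsb (0.31) and Hhip lost their calls. Metformin mice 5 and 6 have no CCl4 mouse of their number, so the block compares metformin mice 1 to 4 with the CCl4 mice. Of 16 named related genes 10 kept their call in every setting. Apart from the settings that test more features or fewer arrays, the cause of these changes was not tested. Dim signal limits Tnc, Fbn2, Mmp9, Mmp12, Thbs2, Hmcn1, Hhip, Epcam, Krt7 and Upk3b. Eln, Fbn1 and Fbln1, the dimmest of the 9, were above background on every array but differed less with normexp (-0.45, -0.50 and -0.18). Mfap4 and Emilin1 also differed less in that setting (-0.60 and -1.42), and Fn1 differed more (0.99). That setting adds an offset of 50 to every signal.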
